A study of Mus musculus with 14 samples.

Results

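Genes that build the sarcomere and Z-disc of striated muscle were followed in bulk RNA-Seq data from the mouse esophagus, in which the epithelium and the stroma had been separated by peeling. The set held 44 genes of the 55291 gene symbols counted, chosen by symbol for their place in the contractile apparatus: 10 of the thin filament, 10 of the thick filament, 4 of titin and the M-band, 14 of the Z-disc and intermediate filaments, and 6 that assemble or degrade these structures. All 44 symbols were found in every sample.

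The 14 samples came from 9 untreated wild type mice, which the labels call C57BL/6. Aged mice were at least 18 months old by the series description and young mice at most 4 months. Epithelium was sequenced from 5 aged mice (O1, O2, O3, OF5 and OM8) and 4 young mice (Y1, Y3, YF5 and YM4), and stroma from aged O1, O2 and O3 and young Y1 and Y3. The stroma is the tissue pulled off with forceps, so each stromal sample mixed muscle with connective tissue, vessels and nerve, and sex was not given in the labels.

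Striated muscle contracts when thick filaments of myosin slide along thin filaments of actin within the sarcomere, the repeating unit of the myofibril. Z-discs anchor the thin filaments at both ends of the sarcomere, the M-band cross-links the thick filaments at its center, and titin spans from Z-disc to M-band. In the mouse the outer muscle coat of the esophagus is largely striated, whereas the muscularis mucosae beneath the epithelium is smooth muscle. Tropomyosins, desmin and filamins are also made outside striated muscle.

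Total counts were 13257833 to 15644580 per stromal sample and 8217516 to 21867101 per epithelial sample. The 4 epithelial samples from mice without stroma (OF5, OM8, YF5 and YM4) gave 63.9 to 73.9% of their counts to 1 ribosomal RNA gene, and retained 1021586 to 1388574 nuclear protein-coding counts against 7918744 to 10992868 in the other 5 epithelial samples. Below, values are normalized counts, which are CPM scaled with TMM factors. On this scale 3 counts, taken as the detection floor, corresponded to 0.707 to 1.25 in those 4 samples, to 0.0872 to 0.124 in the other epithelial samples and to 0.115 to 0.175 in stroma. The 7 squamous epithelial markers, such as Krt5 and Krt13, had median epithelial levels of 1236 to 28084% of the stromal mean. Genes of skeletal muscle outside the sarcomere, such as Ckm, summed to 5291 to 8167 normalized counts in stroma. By these lists both layers carried the markers of their labels. Other stromal lists were mixed. In edgeR (adjusted p under 0.05), 3 of 6 fibroblast and 2 of 5 smooth muscle genes were called lower in epithelium, against 30.1% of all genes tested. All 4 endothelial, 4 adipocyte and 3 Schwann cell genes were. Of 3 leukocyte genes tested 2 were called lower. Of 3 cardiac genes tested 1 was called lower and 1 higher.

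The 44 genes took a large part of the stromal transcriptome. They held 17.4 to 25.8% of nuclear protein-coding counts in the 5 stromal samples and 0.144 to 0.619% in the 9 epithelial samples. Ttn, Acta1, Myh8, Neb and Des together accounted for 75.0% of these stromal counts. Because Ttn and Neb are very long, levels were compared between genes only after division by exon length, as normalized counts per kb, and on that scale the genes ranged from 0.595 to 6113 with a median of 72.4. In bulk tissue, fewer muscle fibers and less RNA per fiber cannot be told apart.

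Upstream sequences of 5 genes are shown first, because the set shares its muscle expression and the actin genes among them are classical targets of muscle transcription factors. RefSeq windows of the 250 bases before the start site (GRCm38.p6) were used for 33 of the 44 genes, with 38 windows in all. Acta1 and Actc1 encode skeletal and cardiac alpha-actin, Ttn and Myh8 encode titin and perinatal myosin, and Tpm2 encodes beta-tropomyosin, whose epithelial level was among the highest of the set. Capitals mark matches, on either strand, to the CArG box bound by serum response factor, the MEF2 site, and the MCAT motif CATTCC bound by TEAD factors.
Acta1, chr8:123894776-123895025, minus strand: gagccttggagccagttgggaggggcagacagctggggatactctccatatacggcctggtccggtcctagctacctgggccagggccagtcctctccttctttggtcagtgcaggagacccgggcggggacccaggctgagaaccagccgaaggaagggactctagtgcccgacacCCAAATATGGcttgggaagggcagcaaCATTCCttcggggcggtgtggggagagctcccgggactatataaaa
Actc1, chr2:114052876-114053125, minus strand: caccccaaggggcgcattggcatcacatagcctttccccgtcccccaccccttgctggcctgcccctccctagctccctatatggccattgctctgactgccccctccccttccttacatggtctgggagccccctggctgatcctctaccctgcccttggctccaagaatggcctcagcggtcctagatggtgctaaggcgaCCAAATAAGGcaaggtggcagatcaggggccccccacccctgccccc
Ttn, chr2:76982548-76982797, minus strand: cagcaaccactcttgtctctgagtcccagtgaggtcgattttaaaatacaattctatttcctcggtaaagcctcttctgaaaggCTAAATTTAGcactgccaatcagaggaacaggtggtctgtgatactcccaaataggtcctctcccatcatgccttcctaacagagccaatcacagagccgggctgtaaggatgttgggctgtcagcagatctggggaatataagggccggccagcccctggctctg
Myh8, chr11:67276874-67277123, plus strand: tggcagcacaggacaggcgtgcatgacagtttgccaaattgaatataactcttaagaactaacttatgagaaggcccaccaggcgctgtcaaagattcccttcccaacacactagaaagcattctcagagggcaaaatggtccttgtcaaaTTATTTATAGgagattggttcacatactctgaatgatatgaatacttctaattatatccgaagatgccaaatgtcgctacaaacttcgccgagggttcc
Tpm2, chr4:43523555-43523804, minus strand: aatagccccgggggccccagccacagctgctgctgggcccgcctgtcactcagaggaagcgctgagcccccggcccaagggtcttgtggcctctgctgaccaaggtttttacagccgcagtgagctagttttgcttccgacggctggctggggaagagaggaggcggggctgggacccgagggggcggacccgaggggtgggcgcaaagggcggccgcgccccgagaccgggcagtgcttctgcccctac

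A CArG box was present in 6 of the 38 windows (15.8%), against 1.47% of the 32851 windows in the table. These belonged to Acta1, Actc1, Myl3, Myom1 and both windows of Ldb3. The windows of Ldb3 overlap and hold the same box, so it was counted in each. A MEF2 site was also found in 6 windows (15.8% against 2.92%), those of Ttn, Myh8, Xirp2, Klhl41, Myoz2 and Myom3. CATTCC was found in 10 windows (26.3% against 12.6%), TATAAA in 8 (21.1% against 12.4%), and the E-box CANNTG, bound by MyoD and its relatives, in 31 (81.6% against 66.2%). Only in Myh8 did matches to different motifs overlap, a MEF2 site with TATAAA. The Tpm2 window held none of the 3 motifs shown in capitals. These are matches of letters and not measured binding.

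The thin filament genes Acta1 and Tpm2 led the stromal levels per kb. Acta1, the actin of the thin filament in adult skeletal muscle, was the highest of all 44 genes at 6113 normalized counts per kb. Its normalized counts were 11282, 8853 and 7286 in aged O1, O2 and O3 and 10878 and 8645 in young Y1 and Y3, a range of 1.55-fold in which the ages overlapped. Tpm2, at 939 per kb, ranked 2 of the 44, with normalized counts of 3300, 2906, 2234, 2871 and 2349 in the same order. Tpm1, the alpha-tropomyosin gene, was at 361 per kb with normalized counts of 2835, 2586, 1922, 2464 and 1913. Tropomyosin lies along actin and gates the access of myosin, and these tropomyosins varied little among the 5 mice. The cardiac actin gene Actc1 was at 205 per kb, and Neb, the giant template of the thin filament, at 163 per kb. The capping and nucleating proteins Lmod2, Lmod3, Tmod1 and Tmod4 and the slow tropomyosin gene Tpm3 were at 12.6 to 66.8 per kb.

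**Figure D1:**
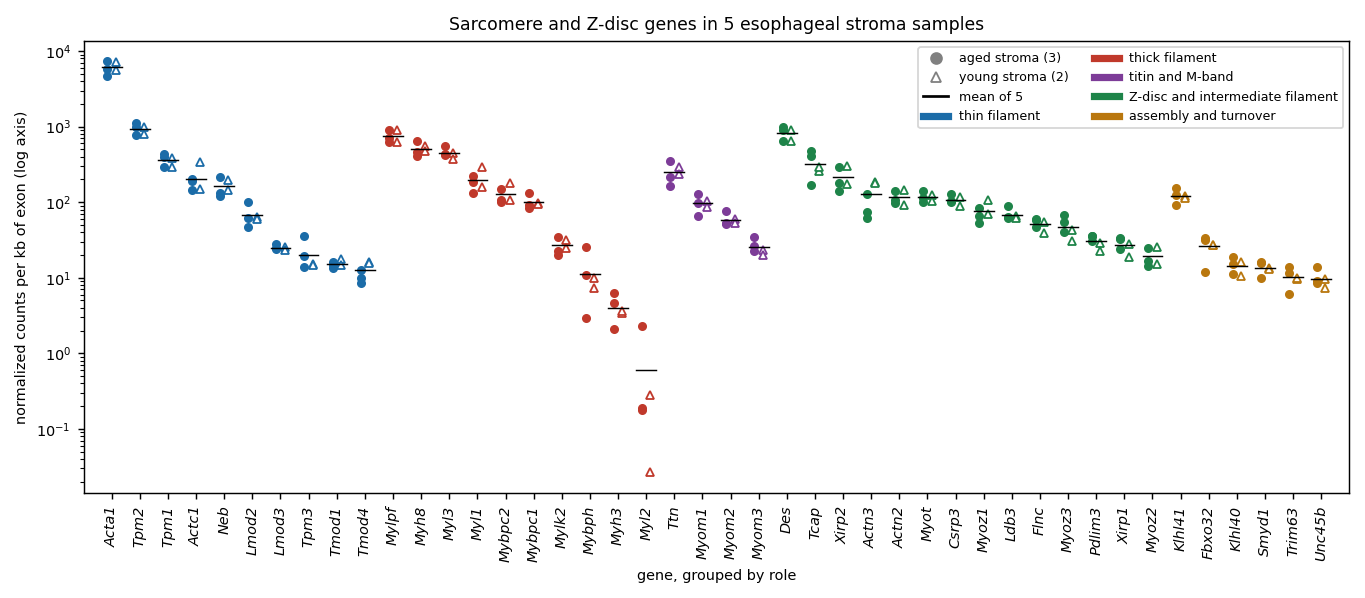
Normalized counts per kb of exon (log axis) of the 44 genes in 3 aged and 2 young stromal samples, grouped by role, with the mean of 5 as a line. Acta1 stands highest at a mean of 6113 and Myl2 lowest at 0.595, and aged and young points mix in most genes.

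Mylpf, Myh8 and Myl3 were the highest genes of the thick filament per kb. Mylpf, the fast regulatory light chain, was at 751 per kb, with normalized counts of 954, 758 and 661 in aged O1, O2 and O3 and 949 and 666 in young Y1 and Y3. Myh8, the perinatal myosin heavy chain, ranked 5 of the 44 at 509 per kb, and its normalized counts were 7523, 4760, 5425, 6562 and 5678 in the same order. For comparison, the adult fast heavy chains Myh1, Myh4 and Myh2 lay at 3763 to 6205, 494 to 791 and 402 to 497 normalized counts, and embryonic Myh3 at 12.5 to 37.7. Myosin heavy chain genes lie in a cluster of similar sequence, and the treatment of reads matching several of them was not given in the sources used here, so the split among them is uncertain. Myl3, a slow and ventricular essential light chain, was at 444 per kb with normalized counts of 1124, 859, 881, 908 and 768. Myl1, Mybpc2 and Mybpc1 were at 101 to 199 per kb, and Mylk2 and Mybph at 26.8 and 11.4.

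Myl2, the slow and ventricular regulatory light chain, was the lowest of the 44 although its partner Myl3 ranked 6. It had 6, 9 and 117 counts in aged O1, O2 and O3 and 1 and 14 in young Y1 and Y3. Most of its signal therefore came from the stroma of O3, at 4.48 normalized counts against 0.0516 to 0.552 in the others. The stroma of O3 was also highest in Mybph, a myosin-binding protein, at 60.0 against 6.77 to 25.3.

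Titin and the M-band genes were present in every stromal sample. Ttn had the most counts of the set, 40469, 25204 and 18986 normalized counts in aged O1, O2 and O3 and 33683 and 27305 in young Y1 and Y3. Per kb it ranked 9, at 249. Myom1, the myomesin of all striated muscle, was at 96.6 per kb with 1341, 1033, 693, 1070 and 914 normalized counts in the same order. Myom2, the myomesin of fast fibers, was at 58.7 per kb with 675, 469, 453, 536 and 466, and Myom3 was at 25.3 per kb. In Ttn and Myom1, O1 was highest and O3 lowest, so both extremes were aged mice.

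Des, the intermediate filament that ties neighboring Z-discs together, led its group at 821 per kb. Its normalized counts were 3712, 3432 and 2404 in aged O1, O2 and O3 and 3397 and 2462 in young Y1 and Y3. Tcap, which clamps the ends of titin molecules at the Z-disc, was at 321 per kb with 453, 389, 160, 243 and 275 in the same order. Xirp2, an actin-binding Xin repeat protein, was at 218 per kb with 3521, 2143, 1703, 3568 and 2119. In Tcap the young samples lay inside the aged range, and in Xirp2 the highest young sample was close to the highest aged one. The fast alpha-actinin Actn3 and the sarcomeric alpha-actinin Actn2 were at similar mean levels of 127 and 116 per kb. Myot, Csrp3, Myoz1, Ldb3, Flnc, Myoz3, Pdlim3, Xirp1 and Myoz2 were at 19.2 to 116 per kb.

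The 6 genes of assembly and turnover ranged from 9.71 to 121 per kb. Klhl41, a Kelch protein that stabilizes nebulin, was at 121 per kb with normalized counts of 394, 319 and 229 in aged O1, O2 and O3 and 306 and 284 in young Y1 and Y3. Fbxo32, the atrogin-1 ubiquitin ligase, was at 26.2 per kb with 233, 219, 83.6, 188 and 189, so O3 was the low sample. Klhl40 was at 14.4 per kb with 46.6, 38.0, 28.3, 40.6 and 26.5. The myosin methyltransferase and chaperone genes Smyd1 and Unc45b and the MuRF1 ligase gene Trim63 were at 9.71 to 13.7 per kb.

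Across the 44 genes the stromal samples differed less than the genes did. The highest sample was under 2 times the lowest in 29 genes, with a median ratio of 1.76. O1 was highest in 30 genes and O3 lowest in 24, and the young sample Y3 was lowest in 13. The order of samples therefore did not follow age.

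The peeled epithelium held little of this signal. In edgeR's quasi-likelihood test over all 14 samples, 43 of the 44 genes passed the expression filter and all 43 were lower in epithelium than in stroma at an adjusted p under 0.05 (Benjamini-Hochberg), whereas 30.1% of the 16791 genes tested were called in this direction. The median log2 fold change of the 43 was -6.00, against -0.05 over all genes tested. Myl2 did not pass the filter. In 43 genes every epithelial sample was also below every stromal sample, against 16.9% of genes tested. Restricting the test to the 5 mice with both layers again gave 43 genes.

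The decrease was largest in Ttn, with a log2 fold change of -7.39 ± 0.77 (SE; edgeR, adjusted p = 8.88e-08). Its epithelial normalized counts ranged from 6.20 to 568 with a median of 174. Acta1 had a log2 fold change of -6.62 ± 1.01 (edgeR, adjusted p = 3.94e-05), and its epithelial values were 48.3, 27.6, 223, 1.38 and 8.01 in aged O1, O2, O3, OF5 and OM8 and 50.01, 131, 367 and 4.501 in young Y1, Y3, YF5 and YM4. Even the highest of these was far under the lowest stromal value of 7286. By role, the median log2 fold change was -5.61 for the thin filament, -6.14 for the thick filament, -6.16 for titin and the M-band, -6.33 for the Z-disc group and -5.92 for assembly and turnover. The smallest decrease was that of Tpm3, at -1.64 ± 0.20 (edgeR, adjusted p = 6.02e-07).

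The epithelial level of each gene was expressed as a residual, its epithelial normalized count in percent of the mean of the 5 stromal samples. The 6 highest residuals, as medians of 9 epithelial samples, were those of Tpm3 (33.5%), Fbxo32 (8.83%), Flnc (7.98%), Pdlim3 (7.49%), Tpm2 (7.10%) and Tpm1 (5.57%). Des followed at 3.84%. The other genes had medians of at most 2.31%, that of Myom3. At the low end were Myl1 at 0.388% and Tcap at 0.398%, and Myl2 had a median of 0, with 0 counts in 5 of 9 epithelial samples. Where Myl2 was counted, its residual was 20.1% in O1, 10.4% in O2, 8.46% in Y3 and 3.05% in Y1, from 8, 4, 3 and 1 counts. In all, 31 of 44 genes had fewer than 3 counts in at least 1 epithelial sample, mostly among the 4 shallow libraries, where a low value is not evidence of absence.

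**Figure D2:**
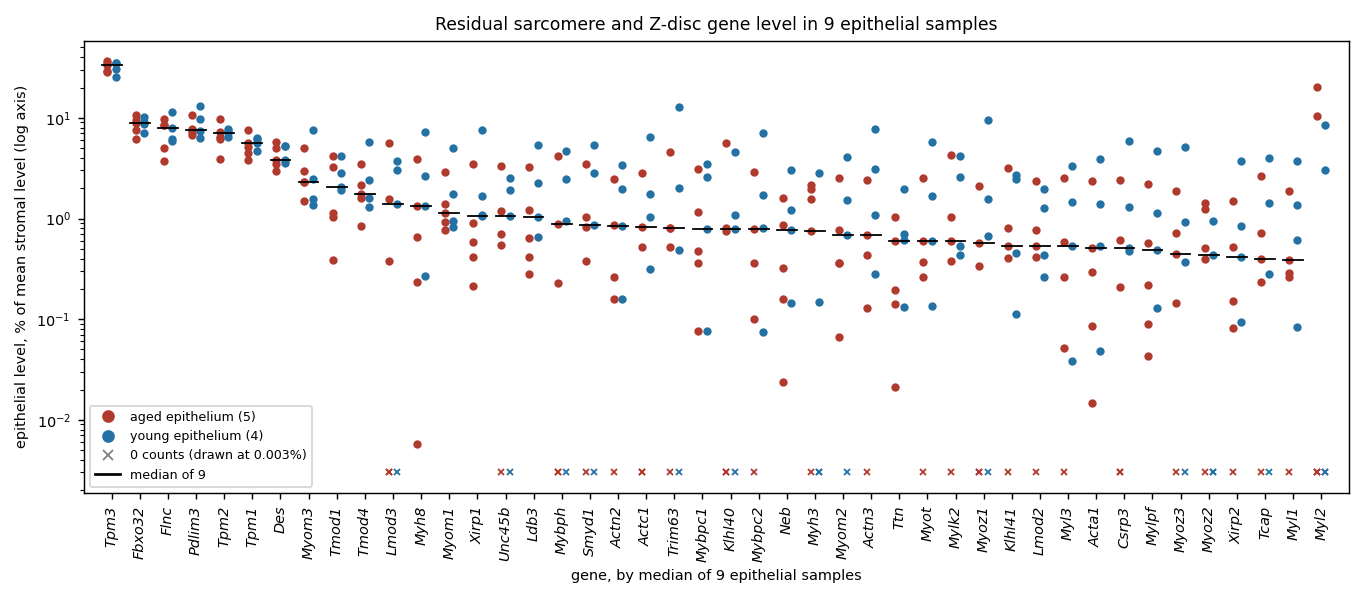
Epithelial normalized count as a percent of the mean stromal count (log axis) for each gene in 5 aged and 4 young epithelial samples, with the median of 9 as a line and samples of 0 counts drawn as crosses at 0.003%. Tpm3, at a median of 33.5%, and the next 6 genes form tight columns, and the points of most other genes spread over more than 10-fold.

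The residual of most genes moved with the amount of other muscle transcripts in the sample. The median residual of 8 skeletal muscle genes outside the sarcomere (Ckm, Atp2a1, Ryr1, Cacna1s, Pvalb, Mb, Casq1 and Eno3) was 0.795, 0.380, 2.51, 0.0662 and 0.0517% in aged O1, O2, O3, OF5 and OM8 and 0.643, 1.55, 4.64 and 0.0961% in young Y1, Y3, YF5 and YM4. Over the 44 genes the median residual was 0.873, 0.460, 3.01, 0 and 0.362% in the same aged mice and 0.824, 2.14, 4.85 and 0.133% in the young mice. YF5 and O3 were high and OF5, OM8 and YM4 low by both measures. YF5 was the highest epithelial sample in 28 of the 44 genes and O3 in 10. The part of carried-over muscle in these residuals was not tested.

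For the 5 mice with both layers, each gene's residual against the stroma of the same mouse was divided by that of the 8 muscle genes. A ratio of 1 means that the gene's residual equaled theirs. Of 43 genes, Myl2 left out as too sparse, 34 had a median ratio between 0.5 and 2, for example Acta1 at 0.828 and Ttn at 0.566. Tmod1 and Myom3, at 2.50 and 2.64, lay somewhat above. The remaining 7 genes had median ratios above 4: Des at 5.03, Tpm1 at 5.81, Fbxo32 at 7.60, Tpm2 at 8.04, Pdlim3 at 9.04, Flnc at 10.6 and Tpm3 at 48.7. Single mice crossed this line. In O3, Des, Flnc, Tpm1, Pdlim3 and Tpm2 were at 2.01 to 3.75, and in Y3 Des was at 2.79. Outside the 7, Tmod1 and Mybph reached 5.91 and 5.42 in O1, and Myom3 4.21 in O2. The division at 4 was made after the values were seen and carries no test.

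These 7 genes varied less among the epithelial samples than the others did. Tpm2 had epithelial normalized counts of 168, 197, 267, 177 and 107 in aged O1, O2, O3, OF5 and OM8 and 194, 203, 212 and 175 in young Y1, Y3, YF5 and YM4. Tpm3 had 40.4, 42.1, 43.98, 34.1 and 35.6 in the aged and 42.4, 41.9, 37.1 and 30.5 in the young mice. OF5, the sample in which Acta1 was lowest, was at 177 for Tpm2, inside the range of the other samples, and at 34.1 for Tpm3, above YM4 only. In Des, OF5 was the highest sample at 178, and the others lay between 92.4 and 163. Flnc, the muscle filamin, ranged from 17.9 to 55.0, Tpm1 from 89.1 to 178, Pdlim3, a PDZ and LIM protein of the Z-disc, from 10.02 to 20.8, and Fbxo32 from 11.2 to 19.3. Among the 9 epithelial samples the highest value of these genes was 1.44 to 3.07 times the lowest. Among the 5 deeper epithelial samples that ratio was 1.09 to 1.70 in these 7 genes and 3.17 to 19.4 in the other 36. The 7 were chosen by their residual in these same samples, so this contrast does not stand apart from the choice. Some of the other 36 also rest on few counts there, such as Klhl40 with 8 to 49.

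**Figure D3:**
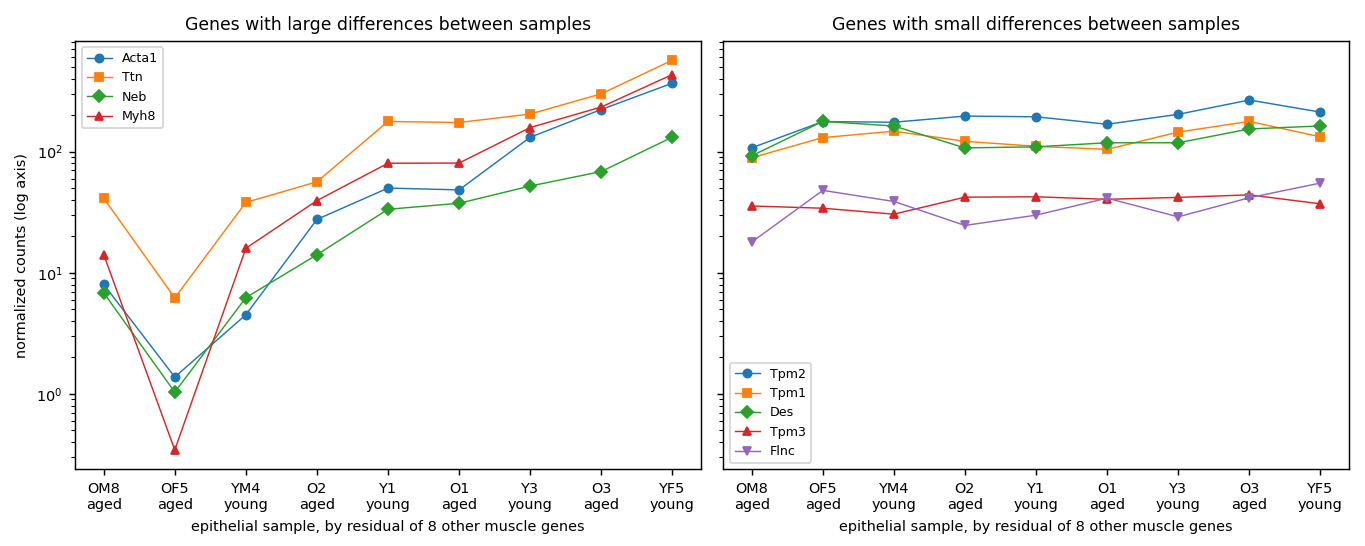
Normalized counts (log axis) of 4 genes with low residuals (left) and 5 with high residuals (right) in the 9 epithelial samples, ordered from left to right by the median residual of 8 other skeletal muscle genes. Acta1 runs from 1.38 in OF5 to 367 in YF5, whereas Tpm2 stays between 107 and 267.

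The 7 genes held 11.96 to 16.0% of the normalized counts of the set in stroma and 23.8 to 95.4% in epithelium, a difference in direction that their choice by residual fixes. Smooth muscle genes (Acta2, Myh11, Tagln, Cnn1 and Smtn) had in the 9 epithelial samples a summed level of 333 to 835 normalized counts against 303 to 2051 in stroma, and single-gene median residuals of 47.6 to 95.6%. Tagln set the upper end and rested on few counts, 4 to 84 in stroma and 0 to 36 in epithelium, with 0 in YM4. Fibroblast genes such as Col1a1 had median residuals of 44.7 to 91.0%. The part of either cell type in the level of the 7 genes was not tested. Of the 6 among them with an upstream window, Tpm1, Pdlim3 and Flnc held CATTCC and none held a CArG box or MEF2 site as defined here. Over all windows of the set CATTCC was in 26.3%, and the CArG box and the MEF2 site were in 15.8% each. The 6 genes are too few to show a difference from these shares.

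Sarcomere genes outside the set showed the same pair of patterns. Of 24 such genes, including troponins and adult myosins, 23 were tested between the layers and all 23 were lower in epithelium, with a median log2 fold change of -5.78. Most had residuals of a few percent or less, such as 0.547% for the fast troponin T gene Tnnt3. Tnni1, Cfl2, Cryab and Fhl1 were higher, with medians of 15.8, 8.87, 8.28 and 8.11%. All 8 genes of skeletal muscle outside the sarcomere were also lower in epithelium, with a median log2 fold change of -6.40.

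Age made no difference that passed the test in stroma. Aged O1, O2 and O3 were compared with young Y1 and Y3 in edgeR, and none of the 44 genes was called at an adjusted p under 0.05, as none of the 21323 genes tested was (0%). At an unadjusted p under 0.05 there were 776 genes, of which Actn3 was the 1 member of the set. DESeq2 also called none of the 44, and 9 genes in all. The log2 fold changes of aged over young had a median of 0.08, with 27 genes above 0 and 17 below, and by role the medians were -0.01 for the thin filament, 0.02 for the thick filament, 0.06 for titin and the M-band, 0.10 for the Z-disc group and 0.09 for assembly and turnover. The 95% interval had a median width of 0.64 to either side, and that of 32 genes lay within a 2-fold difference in both directions, whereas for 12 genes, among them Actn3, Mybph and Myl2, it reached beyond.

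**Figure D4:**
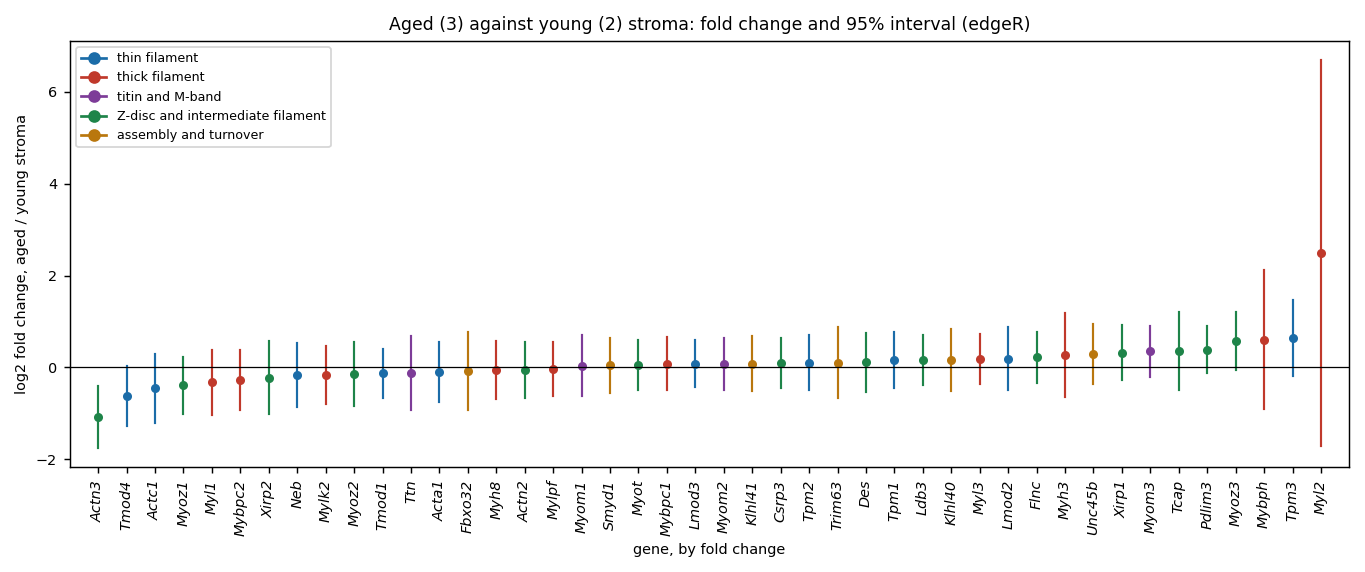
Log2 fold change of aged (3) over young (2) stroma for the 44 genes with the 95% interval from edgeR, ordered by size and colored by role. The interval of Actn3, at -1.08, lies below 0, and all other intervals cross it.

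Actn3, the alpha-actinin of fast glycolytic fibers (chr19:4861216-4877909 in GRCm38), had the lowest unadjusted p of the set. Its normalized counts were 370, 217 and 182 in aged O1, O2 and O3 and 544 and 528 in young Y1 and Y3, so the groups did not overlap. The log2 fold change was -1.08 ± 0.30 (edgeR, unadjusted p = 0.00522, adjusted p = 1). In 2 of 15 alternative analyses Actn3 passed the threshold, once with no filter on low counts (log2 fold change -1.09, adjusted p = 0.00385) and once with the mouse number as a block (-1.08, adjusted p = 0.0148), although the numbers do not mark pairs of aged and young mice. Its paralog Actn2 had no such separation, at 530, 408 and 368 in aged and 548 and 351 in young stroma.

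The 5 next genes by unadjusted p moved in both directions and missed the threshold. Tmod4, a skeletal tropomodulin, was at 16.9, 22.1 and 14.5 in aged and 27.9 and 26.9 in young stroma, with a log2 fold change of -0.63 ± 0.29 (edgeR, adjusted p = 1). Myoz3, a calcineurin-binding Z-disc protein, was at 233, 190 and 139 in aged and 145 and 104 in young stroma, with 0.58 ± 0.28 (adjusted p = 1). Here the lowest aged sample lay below the higher young sample. Tpm3 was at 120, 219 and 83.7 in aged and 92.3 and 88.5 in young stroma (0.63 ± 0.37, adjusted p = 1), a difference carried by O2. Pdlim3 was at 186, 184 and 156 in aged and 150 and 117 in young stroma (0.39 ± 0.23, adjusted p = 1), and Myoz1, another calsarcin, at 160, 123 and 102 in aged and 205 and 130 in young stroma (-0.39 ± 0.28, adjusted p = 1). Of the 44 genes, Actn3, Tmod4 and Pdlim3 had no overlap between the ages, against 20.5% of genes tested.

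**Figure D5:**
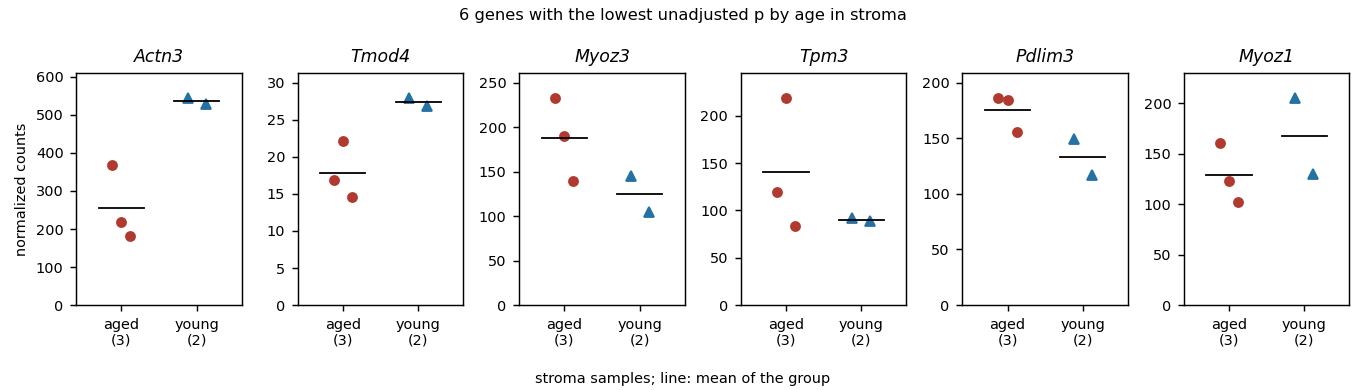
Normalized counts (linear axes from 0) of the 6 genes with the lowest unadjusted p by age, in 3 aged and 2 young stromal samples, with the group mean as a line. Actn3, Tmod4 and Pdlim3 show no overlap between ages, with Actn3 at 182 to 370 in aged and 528 to 544 in young stroma.

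Genes of other muscle compartments gave context for these values. The 8 skeletal muscle genes outside the sarcomere had log2 fold changes of -0.28 to 0.20 by age in stroma, and none was called. Smooth muscle genes had higher point estimates in aged stroma, with log2 fold changes of 1.06 to 2.06, of which 4 of 5 had an unadjusted p under 0.05 and none an adjusted one, and their summed level was 816 to 2051 in aged and 303 to 600 in young stroma. Squamous epithelial genes summed to 49.4 to 432 in aged and 45.0 to 72.9 in young stroma. The part of these cells in the values of Tpm3 and Pdlim3 was not tested.

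In epithelium no age difference in the set was detectable either. The 5 aged and 4 young samples were compared in edgeR with a covariate for mice with and without a stromal sample, and of 39 genes tested none was called, against 0.0126% (2 of 15859) of all genes tested. None of the 39 had an unadjusted p under 0.05, DESeq2 called none of the 32 it tested, and 509 genes in all had an unadjusted p under 0.05. Point estimates were below 0 in 37 of 39 genes, with a median log2 fold change of -0.59, as they were in all 8 other skeletal muscle genes (-1.15 to -0.50). Acta1 was at -1.91 ± 1.92 (edgeR, adjusted p = 1). Without YF5 the median of the set was 0.00 and Acta1 was at 0.12, so the sign rested on that sample. Tpm2, among the genes with less spread, was at -0.17 ± 0.18 (edgeR, adjusted p = 1). The 95% interval had a median width of 2.50 to either side, so only differences of about 5.68-fold or more would have stood outside it for a typical gene.

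The interaction of age and layer, tested over 10 samples from the 5 mice that gave both tissues, asked whether age acted differently on the set in the 2 tissues. None of the 44 genes and none of 22771 genes tested was called (0%), with 979 genes in all and 0 of the 44 at an unadjusted p under 0.05, and DESeq2 called none of the 44. The median log2 difference was 0.02, with single genes from -1.67 to 1.09 and a median 95% interval of 1.90 to either side.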

How the data were processed

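Bulk poly(A) RNA-Seq of 9 epithelial and 5 stromal samples was re-analysed. Per the labels and the paper's methods, the authors aligned reads to GRCm38.p6 with Rsubread and deposited raw whole-number counts per gene from featureCounts. The submitters' processing notes name bcl2fastq. The annotation release, strand setting and treatment of reads that match several genes are not given in the sources used here, so similar genes (actins, tropomyosins, myosin heavy chains) and antisense partners may share reads. Gene positions and exon lengths came from GENCODE M21, which held 53292 of the 55291 symbols.

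Samples were grouped by layer, age and mouse as labelled. Tests used edgeR 4.0.16 under R 4.3.3 (TMM, filterByExpr with a minimum count of 10, robust glmQLFit), with Benjamini-Hochberg adjustment over all genes tested and a threshold of 0.05. Standard errors were taken as the log2 fold change divided by the square root of F. The p-values cover the spread between mice and counting error. Normalized counts are on the library sizes of the 14-sample fit. The methods name DESeq2 for the layers; DESeq2 1.42.0 was run as an alternative, as were other scalings, filters, covariates and each sample left out. The epithelium and stroma of 5 mice are paired by the mouse code in the labels. The correlation of their deviations from group means was 0.042 to 0.141 over 16791 genes. Y1 and Y3 gave the same value, 0.141, because deviations from the mean of 2 mice mirror each other. With so few mice the range does not show whether the pairing can be ignored. The fits were also run on simulated counts with the same spread for every gene and no pairing of layers. That setting lacks the wide spread of the set in epithelium, so it does not vouch for the fits there.

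The 44 genes, their roles and the marker lists were chosen with earlier results of these data known. Per-sample values are given for the 3 genes per role highest per kb in stroma, the 6 highest and 3 lowest residuals among genes with a mean stromal value of at least 1, and the 6 lowest unadjusted p by age in stroma; others named outside the marker lists were chosen after their values were seen. None of the marker lists gave a call by age in stroma, as no gene tested was called. The satellite cell, cardiac, endothelial and leukocyte lists also held no gene at an unadjusted p under 0.05 (edgeR). The adipocyte list held 2 of 4 such genes, the fibroblast list 1 of 6, the Schwann cell list 1 of 3 and the squamous list 4 of 6 tested.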

Additional observations from a re-analysis of the deposited data

Results flagged for a closer look

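Values of each gene in the 5 aged and the 4 young epithelial samples were examined, on the scale of log2 of the normalized count plus 0.5, for a sample far from the rest (Dixon's test). Of the 88 sets of values, 2 were singled out, where chance alone would give about 1 in 20. Klhl40 in the aged epithelium of O3 was at 1.34 against -1 to -0.34 in the other aged samples, from 49 counts. Myh3 in the young epithelium of Y3 was at 0.25 against -1 to -0.90, from 21 counts. Its normalized count there, 0.687, lay under the 3-count floor of the shallow YF5 (1.25) and YM4 (1.04). Both had 0 counts of Myh3, which does not show a lower level. For Klhl40 the shallow OF5 and OM8 also had 0 counts. Both samples were above the median of the 9 epithelial samples in the other skeletal muscle genes, at residuals of 2.51% for O3 and 1.55% for Y3. No gene of the set was called for a difference in its age effect between the layers (edgeR interaction).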

How the results depend on the processing

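The number of genes called lower in epithelium was 43 or 44 in every alternative but 1. Requiring at least 10 counts in every sample left 9 of the 44 genes to test, all 9 of which were called, because most of the set falls under that count in the shallow epithelial samples. With the mouse as a block (replicate block) 43 of 44 tested genes were called, Myl2 being the exception (edgeR, adjusted p = 0.224), and no other call between the layers changed. Leaving out each sample in turn gave 43 to 43 genes. By age in stroma the count of 0 became 1, Actn3, with no filter on low counts and with the mouse number as a replicate block (adjusted p = 0.00385 and 0.0148), and stayed at 0 to 0 when each sample was left out. The numbers only name mice across ages. The correlation of deviations was 0.068 for O1 with Y1 and 0.065 for O3 with Y3. Between the layers of the same mouse it was 0.042 to 0.141, so it cannot tell pairs from other samples. The counts by age in epithelium and for the interaction were 0 under every alternative, the replicate block included. By age in epithelium the estimates of Acta1 and Tpm2, the 2 genes followed through the alternatives, both changed sign. That of Acta1 became 0.13 in the 5 mice with both layers and 0.12 without YF5, with a range of -3.23 to 0.12 when each sample was left out. That of Tpm2 became 0.046 with library size alone and 0.077 in the 5 mice, and ranged from -0.29 to 0.0053 when each sample was left out, the highest without OM8; the cause was not tested. With the stroma of the same mouse as reference the residual moved to 46.0% for Tpm3 and 6.81% for Fbxo32, and to 32.8% for Myl2, which rests on few counts. With library size alone it moved to 6.13% for Fbxo32, 5.34% for Flnc and 4.12% for Tpm1. Depth limits the 4 shallow epithelial samples most.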

Other observations

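Other lists gave values for cells that accompany muscle. Several genes of the set, among them Actc1, Myl3 and Csrp3, are also heart genes. The cardiac list (Myh6, Nppa, Tnni3, Tnnt2 and Myl7), in contrast, summed to only 16.9 to 50.1 normalized counts in stroma and 9.11 to 30.9 in epithelium. Nppa had fewer than 3 counts in every stromal sample. The list did not move as 1 group, as Myh6 was lower in epithelium (log2 fold change -2.81, edgeR, adjusted p = 0.000107) and Myl7 higher (2.76, adjusted p = 0.000754). The satellite cell genes Pax7 and Myf5 summed to 2.21 to 4.32 in stroma and 0 to 0.360 in epithelium. The adipocyte genes Adipoq, Plin1, Cfd and Lep summed to 86.2 to 411 in stroma and to at most 0.756 in epithelium, and all 4 were called lower there by edgeR with a median log2 fold change of -9.11. Their residuals had medians of at most 0.0786% over the 9 epithelial samples, each with 0 to 15 counts of a given gene, and single samples reached 3.93% for Lep in O1. Endothelial genes had median residuals of 12.9 to 27.8%. Between aged and young stroma none of these genes was called.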
